A study of Mus musculus with 22 samples.

Results

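The genes that copy DNA in S phase were followed through every RNA-seq library of a study of Arid1a in mouse bladder organoids, cultures of bladder epithelium grown in 3 dimensions. The set held 57 of the 24421 gene symbols that were counted. Its members were listed by name for their known parts in origin licensing, helicase activation, DNA synthesis, nucleotide supply, chromatin copying and fork protection. The choice was made with earlier results of these data known. All 57 had counts in each of the 22 libraries' tables, and all 57 passed the count filter in each of the 9 comparisons fitted.

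The protein of Arid1a is a subunit of BAF, a SWI/SNF complex that moves nucleosomes, and binds DNA. Primary bladder urothelial organoids labelled ARID1A WT (wild type) or ARID1A KO (knockout) gave 18 libraries: total RNA and 2 fractions of a sucrose gradient, polysome and subpolysome, with 3 libraries for each genotype and kind of RNA. The polysome fraction holds mRNAs that carry several ribosomes, and the subpolysome fraction those with few or none. Total RNA of isogenic bladder cancer organoids, whose tissue label reads bladder cancer tissue, gave 2 libraries labelled WT and 2 labelled KO. No treatment was named for any group, and the sources used here do not give how the knockout was made, which part of Arid1a it removes, or the age or number of mice. The study asks how Arid1a bears on mRNA translation in the bladder. The labels do not tell whether replicates are separate mice or cultures, and the spread behind each p-value may therefore be technical only.

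A cell prepares to copy its DNA by loading the MCM helicase onto origins, with the origin recognition complex, Cdc6 and Cdt1 as loaders and geminin (Gmnn) as the brake on Cdt1. At the start of S phase the kinase Cdc7 with Dbf4, together with Cdc45 and the GINS complex, turns the loaded helicase on. Polymerases alpha, delta and epsilon then copy both strands behind it, with PCNA as the sliding clamp. Many of these genes are transcribed under the E2F transcription factors, so their mRNAs are known to be abundant in dividing cells and scarce in resting ones. The bladder urothelium is a tissue of very slow turnover in the adult, which divides quickly after injury.

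Arid1a itself was read first, as a check on the labels. Its level in total RNA was 114.2, 131.1 and 116.8 scaled CPM in the 3 WT libraries and 75.2, 75.3 and 84.1 in the 3 KO libraries. Scaled CPM is CPM, a gene's count relative to its library's total, after TMM scaling over all 22 libraries. Every KO library lay below every WT library (log2 fold change -0.60, SE 0.06, adjusted p = 5.68e-06), while the difference did not pass in the polysome fraction (-0.48, adjusted p = 0.0817) or the subpolysome fraction (0.19, adjusted p = 0.276). In the cancer libraries the level was 66.5 and 195.8 in those labelled WT and 174 and 56.3 in those labelled KO. The first library labelled WT was low and the first labelled KO was high, so the counts of this gene go against 2 of the 4 labels. Genotypes of the cancer libraries are therefore given as labelled.

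Libraries held 39245248 to 76594655 counts, fewest in the subpolysome fraction (39245248 to 51628570). The 57 genes took 0.103 to 0.201% of the counts in total RNA, 0.119 to 0.206% in polysomes, 0.0505 to 0.084% in subpolysomes and 0.730 to 0.805% in the cancer organoids. The 15 listed urothelial and epithelial markers summed to 8182 to 13230 scaled CPM in primary WT libraries, 8084 to 13600 in primary KO and 7372 to 10440 in cancer. In cancer the sum was carried by the basal keratin Krt5 (6541 to 9227). Krt7 was at most 0.214, Krt8 7.89, Pparg 5.49 and the uroplakin Upk1a 0.158, and the uroplakins Upk2 and Upk3a were at 0 in all 4 libraries. Other listed markers were present in cancer: Trp63 at 416 to 857, Cdh1 at 115 to 167, Epcam at 47.4 to 68.04 and Foxa1 at 27.3 to 53.03. Krt18 ranged from 3.61 to 105.5, Gata3 from 3.99 to 81.3, Grhl3 from 7.38 to 26.01 and Upk1b from 0.268 to 17.4. Lists of other cells were low in every library: summed levels reached 12.1 scaled CPM for fibroblasts (7 listed), 23.3 for smooth muscle (5), 2.41 for endothelium (4), 28.9 for immune cells (7) and 0 for erythroid cells (4).

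Promoters of 4 members are printed because they show members with and without the E2F motifs searched for here. Such a motif is held by 18 of the 47 members with a promoter window. RefSeq windows (GRCm38.p6, 250 bases before to 50 after the transcription start, 300 bases in all) matched 47 of the 57 genes, in 57 windows. Gins2, Gmnn, Gins4, Tipin, Mcm4, Prim2, Gins1, Pole, Rfc2 and Exo1 have no window in the table. Any of TTTCCCGC, TTTGGCGC, TTTCGCGC and TTTGCCGC, searched on both strands, stood in 18 of the 57 windows (31.6%), beside 744 of all 32851 windows (2.26%) and 479 of the 12748 windows (3.76%) of genes tested in total RNA. The 200 bases before the start are shown, with these motifs in capitals, overlapping ones run together. They lie upstream of Mcm6 (chr1:128359706-128359905, minus strand, 3 motifs), Mcm5 (chr8:75109309-75109508, plus strand, 2 motifs), Pola1 (chrX:93632156-93632355, minus strand, motif read as its reverse complement) and Orc2 (chr1:58505110-58505309, minus strand, no motif). The first 3 genes rose in the KO organoids and Orc2 did not, but these 4 do not stand for the set. Rfc3 holds 2 motifs and did not pass, and Tk1 and Mcm10 hold none and rose.
Mcm6: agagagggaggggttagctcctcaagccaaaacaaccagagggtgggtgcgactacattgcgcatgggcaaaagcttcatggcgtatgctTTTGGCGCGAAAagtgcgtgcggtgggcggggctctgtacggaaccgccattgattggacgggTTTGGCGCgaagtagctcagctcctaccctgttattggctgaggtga
Mcm5: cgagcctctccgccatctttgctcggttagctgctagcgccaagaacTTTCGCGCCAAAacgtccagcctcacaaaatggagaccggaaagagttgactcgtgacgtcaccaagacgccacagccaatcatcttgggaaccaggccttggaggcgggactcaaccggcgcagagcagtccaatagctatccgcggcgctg
Pola1: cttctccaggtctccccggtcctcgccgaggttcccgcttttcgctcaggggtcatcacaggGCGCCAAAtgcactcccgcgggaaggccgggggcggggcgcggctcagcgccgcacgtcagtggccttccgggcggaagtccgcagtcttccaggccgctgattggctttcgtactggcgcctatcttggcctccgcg
Orc2: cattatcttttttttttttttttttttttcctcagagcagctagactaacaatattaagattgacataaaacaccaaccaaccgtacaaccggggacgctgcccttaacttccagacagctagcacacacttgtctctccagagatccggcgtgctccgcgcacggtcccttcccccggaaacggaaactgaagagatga

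A motif match is a description of letters and not a measured binding site. The motifs of Mcm6 begin 110, 106 and 47 bases before the start, the first 2 of them overlapping on opposite strands. Those of Mcm5 begin 153 and 149 bases before it and overlap likewise, and that of Pola1 begins 138 bases before it. Members with and without an exact match to the letters searched moved to a similar degree in total RNA. The 18 genes with a match had a median log2 fold change of 0.81 and 17 of them rose. The 29 genes without a match had a median of 0.77 and 27 of them rose. Variants of these letters were not searched, and nearly all genes of both groups rose, so the split cannot show the part of E2F, which was not tested. The CCAAT box, a common promoter element searched as CCAAT on both strands, stood in 54.4% of member windows and 37.4% of all windows. The CHR element of mitotic genes (TTTGAA or TTCGAA, both strands) stood in 19.3% and 19.2%.

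In total RNA, transcripts of the replication machinery were higher in KO than in WT organoids in nearly every role. Of the 57 genes, 53 rose and 0 fell, while 27% of the 13198 genes tested were called higher and 26.3% lower (edgeR's quasi-likelihood test, Benjamini-Hochberg adjusted p under 0.05). The median log2 fold change was 0.78 over the 57 genes and 0.003 over all genes tested. For 53 genes every KO library lay above every WT library, as did 28.4% of all genes, and for 1, Orc2, every KO library lay below, as did 33.1%. In bulk RNA, a larger share of cells in S phase and more of these transcripts per cell cannot be told apart. Mki67, a gene expressed in cycling cells, moved with them: it stood at 16.5, 8.56 and 8.89 scaled CPM in WT and at 43.5, 26.0 and 36.8 in KO (log2 fold change 1.67, SE 0.24, adjusted p = 0.000109). Marker lists moved as well: 11 of 15 urothelial and epithelial genes rose in KO total RNA, the uroplakins Upk1a, Upk1b, Upk2 and Upk3a among them, and Cdh1, Epcam and Krt7 fell. Acta2, the only 1 of 5 smooth muscle genes tested, and Cd68 of macrophages, 1 of 2 immune genes tested, rose too. The median of the immune genes tested was -0.1. Among 3 fibroblast genes tested Col1a1 fell and 0 rose. The smooth muscle list summed to 1.80 to 7.199 over primary WT libraries and 4.75 to 23.3 over KO, and the immune list to 6.36 to 15.5 and 14.6 to 28.9, with the immune gene Lyz2 at 0 in all libraries. These sums came mostly from Acta2 and Cd68 alone, so they do not describe the lists as a whole. The part of these markers in the result was not tested.

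**Figure D1:**
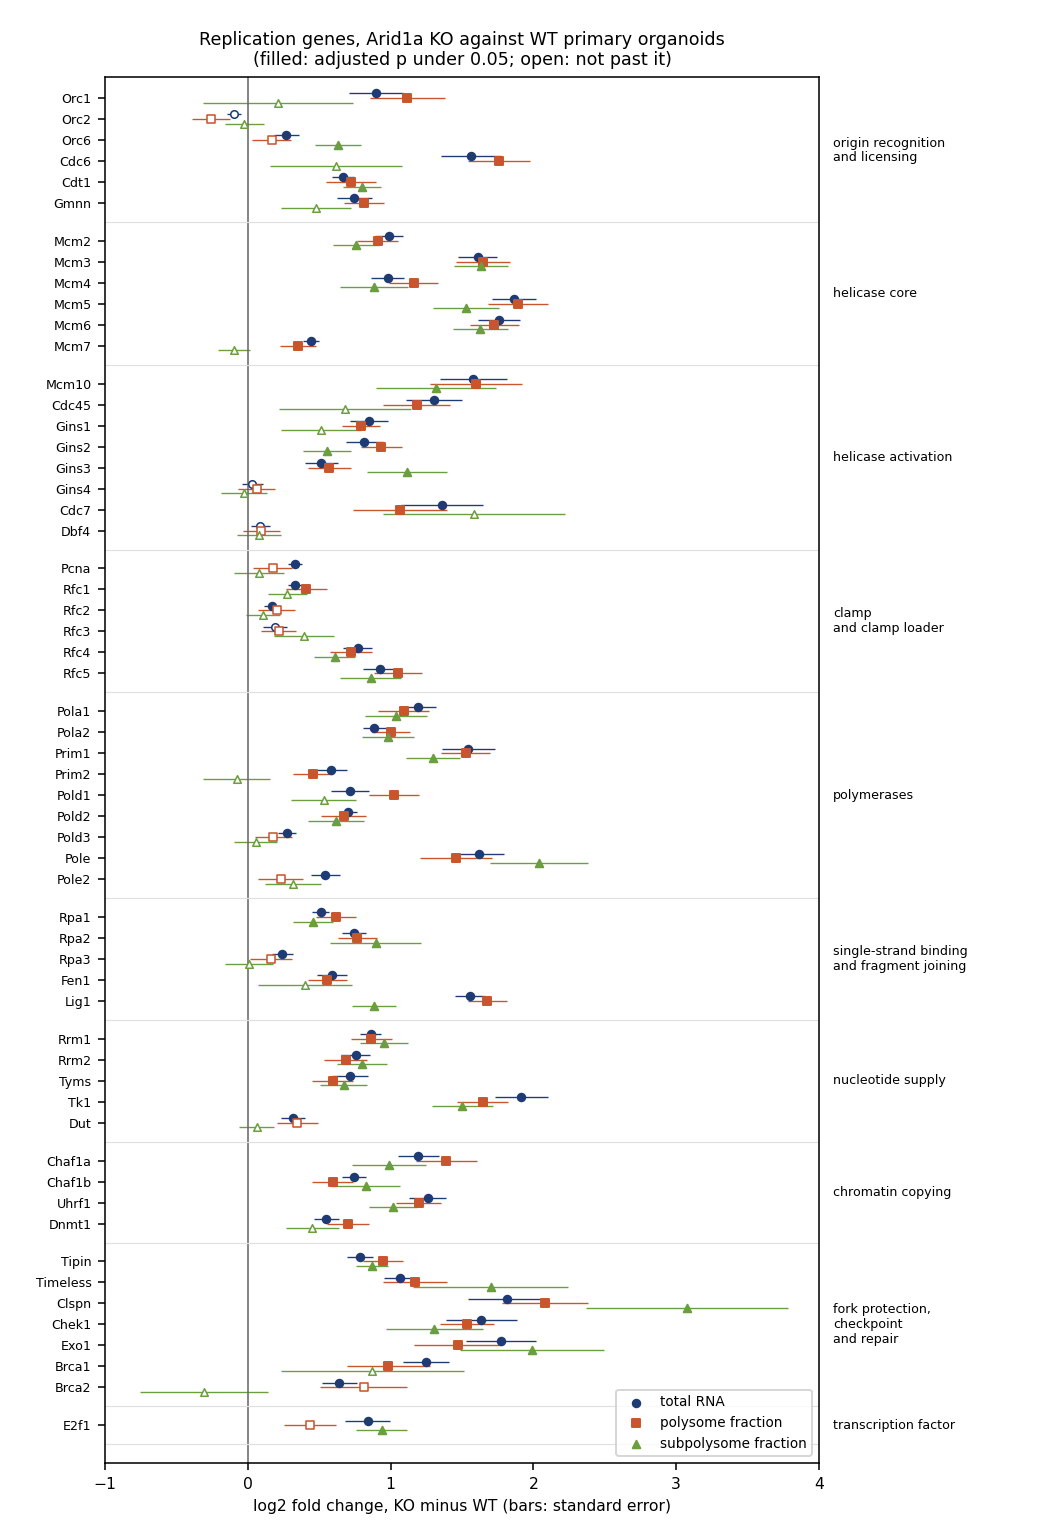
Log2 fold change (KO minus WT, horizontal axis) of each of the 57 genes in total RNA (circles), polysomes (squares) and subpolysomes (triangles), with bars of 1 standard error and 3 libraries per genotype. Filled symbols passed an adjusted p of 0.05. The helicase core lies well to the right of 0 except for Mcm7, while Orc2, Gins4 and Dbf4 lie near 0 with open symbols in all 3 kinds of RNA.

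Among origin and licensing genes, 5 of 6 rose in total RNA. Cdc6, the ATPase that loads the helicase, stood at 3.24, 1.74 and 1.77 scaled CPM in WT and at 6.26, 6.68 and 6.76 in KO (log2 fold change 1.56, SE 0.21, adjusted p = 6.63e-05). Cdt1, its partner in loading, stood at 16.9, 15.2 and 14.8 in WT and at 26.1, 22.6 and 24.3 in KO (log2 fold change 0.67, SE 0.08, adjusted p = 2.2e-05). Gmnn, the inhibitor of Cdt1, stood at 10.1, 7.92 and 9.08 in WT and at 17.6, 13.3 and 13.7 in KO (log2 fold change 0.74, SE 0.12, adjusted p = 0.000304). Loader and inhibitor thus rose together, and no KO library overlapped a WT library for any of the 3. The origin recognition subunits were uneven. Orc1 rose by 0.90 on the log2 scale. Orc6 stood at 11.4, 11.4 and 10.1 in WT and at 14.1, 11.6 and 13.2 in KO and rose by 0.27, a call that was lost without KO 1, WT 3 or KO 3 (adjusted p = 0.102, 0.106 and 0.0744). Orc2 stood at 29.6, 31.3 and 31.01 in WT and at 27.8, 27.6 and 28.8 in KO, a small gap between groups that did not pass (log2 fold change -0.10, SE 0.05, adjusted p = 0.126). In the annotation, 24% of the exon bases of Orc2 overlap Nif3l1 on the other strand, and whether reads were counted by strand is not given in the sources used here.

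The helicase core had the highest median of the roles with several genes, 1.30, and all 6 of its genes rose. Mcm5 (chr8:75109569-75128439, plus strand) stood at 15.96, 10.7 and 11.4 scaled CPM in WT and at 52.6, 36.96 and 46.4 in KO, 3.64-fold higher (log2 fold change 1.86, SE 0.15, adjusted p = 1.38e-06). Mcm6 (chr1:128331590-128359664, minus strand) stood at 18.3, 13.1 and 13.2 in WT and at 58.6, 40.8 and 49.5 in KO, 3.39-fold higher (log2 fold change 1.76, SE 0.14, adjusted p = 1.35e-06). These are the genes whose upstream sequences are printed above. For both, the lowest KO library held more than double the highest WT library. Mcm3 stood at 18.7, 14.2 and 13.6 in WT and at 54.6, 38.4 and 46.3 in KO (log2 fold change 1.61, SE 0.14, adjusted p = 1.74e-06). Mcm2 stood at 25.9, 25.4 and 21.9 in WT and at 54.7, 41.2 and 46.7 in KO (log2 fold change 0.99, SE 0.10, adjusted p = 5.68e-06). The subunits, which assemble into 1 ring, did not rise alike: Mcm4 rose by 0.98 and Mcm7 by 0.44 (SE 0.06), from 55.2, 54.8 and 53.8 in WT to 77.6, 66.4 and 74.3 in KO.

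Of the 8 genes of helicase activation, 6 rose. Mcm10, which helps to fire the loaded helicase, stood at 2.26, 1.29 and 1.27 scaled CPM in WT and at 5.61, 3.69 and 4.91 in KO (log2 fold change 1.58, SE 0.23, adjusted p = 0.000142). Cdc45, the helicase cofactor, rose by 1.30 on the log2 scale (SE 0.20). The other cofactor, the GINS complex, has 4 subunits and they split: Gins1, Gins2 and Gins3 rose by 0.85, 0.82 and 0.52, while Gins4 stood at 24.6, 22.8 and 22.4 in WT and at 25.8, 22.1 and 22.03 in KO, with overlapping groups (log2 fold change 0.03, SE 0.07, adjusted p = 0.743). The pair that makes the firing kinase split likewise. Its catalytic subunit Cdc7 rose by 1.36 (SE 0.28, adjusted p = 0.00179) from the low levels of 1.15, 0.532 and 1.01 in WT. Its activator Dbf4 stood at 28.9, 27.4 and 29.4 in WT and at 32.8, 27.7 and 28.8 in KO, again overlapping (log2 fold change 0.09, SE 0.07, adjusted p = 0.308). Gins2 shares 70.7% of its exon bases with Gse1 on the other strand, so its counts are uncertain.

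The clamp and its loader moved least, with a median of 0.33 and 5 of 6 genes higher. Pcna stood at 47.05, 45.96 and 46.4 scaled CPM in WT and at 60.2, 56.1 and 55.7 in KO (log2 fold change 0.33, SE 0.05, adjusted p = 0.000125). The groups did not overlap, yet the difference was 1.26-fold. Rfc4 and Rfc5 of the clamp loader rose by 0.77 and 0.93. Rfc1, its large subunit, rose by 0.33. Rfc2 stood at 34.3, 35.5 and 35.3 in WT and at 41.7, 36.8 and 37.4 in KO and rose by 0.17 (adjusted p = 0.0243), a call lost without WT 1, KO 1, WT 2 or WT 3 (adjusted p = 0.0557, 0.113, 0.0519 and 0.0595). Rfc3 stood at 15.3, 16.7 and 18.5 in WT and at 20.4, 16.9 and 19.2 in KO and did not pass (log2 fold change 0.19, SE 0.09, adjusted p = 0.0854), but did so without KO 2 or WT 3 (adjusted p = 0.0267 and 0.0376).

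All 9 polymerase genes rose, by a median of 0.72. Pole, the catalytic subunit of the leading-strand polymerase, stood at 2.75, 2.63 and 2.08 scaled CPM in WT and at 8.62, 5.45 and 8.36 in KO (log2 fold change 1.62, SE 0.18, adjusted p = 1.61e-05). Prim1, the primase that starts each new strand, stood at 5.39, 3.75 and 3.600 in WT and at 15.1, 9.53 and 11.9 in KO (log2 fold change 1.54, SE 0.18, adjusted p = 2.74e-05). No libraries of the genotypes overlapped for either gene. The other catalytic subunits, Pola1 and Pold1, rose by 1.19 and 0.72, and the accessory subunits Pola2, Pold2, Pole2, Prim2 and Pold3 by 0.89, 0.70, 0.54, 0.58 and 0.28.

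The 5 genes that coat single strands and join fragments all rose. Lig1, the ligase that seals lagging-strand fragments, stood at 23.4, 19.8 and 16.9 scaled CPM in WT and at 62.4, 51.9 and 59.2 in KO, the lowest adjusted p of the 57 genes (log2 fold change 1.56, SE 0.11, adjusted p = 2.8e-07). Its KO libraries all held more than double the highest WT library. The flap nuclease Fen1 rose by 0.59, but 78.8% of its exon bases overlap the antisense gene Gm10143. The subunits of RPA, the single-strand binding protein, rose by 0.51 (Rpa1), 0.74 (Rpa2) and 0.24 (Rpa3). Rpa3 stood at 11.1, 11.1 and 11.5 in WT and at 14, 12.8 and 12.5 in KO. Its call (adjusted p = 0.0175) was lost without KO 1 or WT 2 (adjusted p = 0.0765 and 0.0505).

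All 5 genes of nucleotide supply rose, with the salvage enzyme in front. Tk1, thymidine kinase, stood at 9.40, 5.74 and 5.82 scaled CPM in WT and at 30.4, 20.8 and 26.7 in KO, 3.77-fold higher and the largest change among the 57 genes (log2 fold change 1.92, SE 0.18, adjusted p = 5.11e-06). Rrm2, the subunit of ribonucleotide reductase that limits dNTP synthesis in S phase, stood at 39.2, 34.7 and 31.5 in WT and at 65.6, 49.9 and 59.3 in KO (log2 fold change 0.76, SE 0.10, adjusted p = 5.78e-05). Tyms, thymidylate synthase, stood at 14.2, 11.3 and 13.9 in WT and at 24.4, 17.3 and 21.9 in KO (log2 fold change 0.72, SE 0.12, adjusted p = 0.000447). The genotypes did not overlap for these 3 genes. Rrm1, the large reductase subunit, rose by 0.86 and Dut, the dUTPase, by 0.32. The pseudogene Tyms-ps held 68 counts over all libraries together.

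All 4 genes of chromatin copying rose. Uhrf1, which recognises newly copied half-methylated DNA, stood at 23.2, 18.96 and 17.1 scaled CPM in WT and at 54.5, 38.3 and 46.7 in KO (log2 fold change 1.26, SE 0.13, adjusted p = 8.49e-06). Dnmt1, the methyltransferase that Uhrf1 brings to the fork, stood at 48.8, 49.4 and 41.8 in WT and at 73.8, 57.9 and 69.4 in KO (log2 fold change 0.55, SE 0.09, adjusted p = 0.000236). The groups stayed apart for both genes, with the smaller difference in Dnmt1. Chaf1a and Chaf1b, subunits of the histone chaperone CAF-1, rose by 1.19 and 0.74. Ubxn6 overlaps 33.6% of the exon bases of Chaf1a.

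Fork protection, checkpoint and repair genes all rose (7 of 7, median 1.25), mostly from low levels. Clspn, claspin, which passes the stalled-fork signal to the checkpoint kinase, stood at 2.71, 1.38 and 1.31 scaled CPM in WT and at 8.01, 4.57 and 6.22 in KO (log2 fold change 1.82, SE 0.27, adjusted p = 0.00017). Exo1, an exonuclease of resection and mismatch repair, stood at 1.63, 1.05 and 1.13 in WT and at 5.68, 2.98 and 4.16 in KO (log2 fold change 1.77, SE 0.24, adjusted p = 8.71e-05). Chek1, the checkpoint kinase, stood at 2.33, 1.15 and 1.23 in WT and at 5.92, 4.16 and 4.38 in KO (log2 fold change 1.64, SE 0.25, adjusted p = 0.000189). In all 3, WT 1 stood above the other WT libraries and KO 2 below the other KO libraries, and the genotypes still did not overlap. Timeless and Tipin, the partners that hold polymerase and helicase together, rose by 1.06 and 0.79. Brca1 and Brca2, which act in recombination and in shielding stalled forks, rose by 1.25 and 0.64. E2f1, the transcription factor of the set, stood at 4.53, 4.24 and 3.54 in WT and at 8.65, 5.59 and 7.38 in KO (log2 fold change 0.84, SE 0.16, adjusted p = 0.000852).

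The same libraries were extreme across the set. In total RNA, KO 1 held the highest KO level of 53 of the 57 genes and KO 2 the lowest of 48, and WT 1 held the highest WT level of 42. Mki67 was likewise highest in KO 1 and WT 1 and lowest in KO 2 among the libraries of their groups. Leaving out any 1 library gave 50 to 54 genes higher and 0 lower. When all 18 primary libraries shared 1 fit, 45 of the 57 rose and 0 fell in total RNA. The 8 calls lost in it were those of Orc1 (adjusted p = 0.0551), Orc6 (0.21), Pcna (0.0992), Rfc2 (0.374), Pold3 (0.102), Rpa3 (0.363), Dut (0.0921) and Brca2 (0.0996). Leaving out WT 1 and KO 2 together, an alternative chosen after seeing the data, gave 53 higher, with 3259 of all genes higher and 3240 lower.

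Levels can be compared between genes only per length, here as scaled CPM per kilobase of exon, with exon lengths from GENCODE M21. Exon length is the union of exons over a gene's protein-coding transcripts, which can exceed the length of any 1 mRNA. In WT total RNA, Pcna was the most abundant of the 57 at 30.6 ± 0.362 per kilobase (mean ± SD, n = 3), followed by Gins4 (17.2 ± 0.873), Rpa3 (16.8 ± 0.349), Mcm7 (14.8 ± 0.200) and Rrm2 (14.8 ± 1.63). Gins4 and Rpa3 did not differ beyond their spread, nor did Mcm7 and Rrm2, while Pcna lay above all of them by far more than the spread. Exo1 (0.154 ± 0.0381), Brca2 (0.231 ± 0.00153) and Cdc7 (0.278 ± 0.1004) were the scarcest. In KO the order at the top was Pcna (37.8 ± 1.64), Rrm2 (24.5 ± 3.31) and Rrm1 (23.1 ± 1.99).

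Genes of the pathway outside the set, 93 in 8 lists, moved the same way more often than not. Of 92 tested in total RNA, 58 rose and 9 fell, with a median log2 fold change of 0.26. Genes of origin firing all rose (7 of 7), led by Recql4, a helicase that helps to fire origins (1.97), and Ticrr, which brings the firing signal to the helicase (1.96). Checkpoint and repair genes followed with 11 of 18 higher and 0 lower, led by Rad54l (2.06) and Fanci (1.79), and chromatin copying with 8 of 10 higher and 0 lower, led by Asf1b (1.64) and Hat1 (0.69). Among the cyclins and their regulators 5 of 8 rose, led by Ccna2 (1.88) and Ccne2 (1.37), and Cdkn1a, the p21 inhibitor of cyclin-dependent kinases, fell. In the polymerase and fork list 8 of 16 rose and 2 fell, led by 2810417H13Rik, the PCNA-binding factor also named Pclaf (1.99), and Top2a (1.69). In the E2F and RB list 7 of 14 rose and 1 fell, led by the repressors E2f7 (2.08) and E2f8 (1.03). Helicase loading had 5 of 7 higher and 1 lower, led by Fbxo5 (0.96) and Mcm8 (0.73), and nucleotide supply 7 of 12 higher and 4 lower. Every gene named as leading a list passed the test.

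In the polysome fraction the genes were again higher in KO, with 44 of 57 that rose and 0 that fell, where 14.9% of 13066 genes tested were called higher and 13.8% lower, and the median log2 fold change was 0.81 beside 0.006 over all genes. Every KO library lay above every WT library for 47 genes (19.8% of all genes) and below for 1 (23.4%). Clspn stood at 0.915, 0.483 and 0.525 scaled CPM in WT polysomes and at 3.51, 2.12 and 2.40 in KO (log2 fold change 2.08, SE 0.30, adjusted p = 5.35e-05). Mcm5 stood at 9.16, 5.88 and 4.54 and at 24.5, 20.9 and 26.3 (log2 fold change 1.89, SE 0.21, adjusted p = 2.7e-06). Cdc6 stood at 1.59, 1.24 and 1.11 and at 4.43, 3.70 and 5.02 (log2 fold change 1.76, SE 0.22, adjusted p = 1.08e-05). In each of the 3 the lowest KO library held more than double the highest WT library. Mcm6 stood at 12.7, 9.18 and 8.95 in WT polysomes and at 38.1, 27.7 and 34.4 in KO (log2 fold change 1.73, SE 0.17, adjusted p = 7.46e-07). Mki67 rose by 1.72 on the log2 scale in the same fraction (SE 0.23).

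The lowest polysome values belonged to Orc2, Gins4, Dbf4 and Rpa3, of which Rpa3 alone had passed in total RNA. Orc2 stood at 60.8, 70.7 and 71.6 scaled CPM in WT polysomes and at 60.1, 56 and 50.2 in KO, with every KO library lower, and Gins4 stood at 48.6, 48.04 and 46.6 and at 52.1, 42.6 and 51.9. Dbf4 stood at 32.2, 36.4 and 34.97 and at 39.5, 34.99 and 33.7, and Rpa3 at 35.6, 52.4 and 50.6 and at 54.7, 44.9 and 52.5. The genotypes overlapped in the last 3. Orc2 had a log2 fold change of -0.26 (adjusted p = 0.158), Gins4 0.06 (0.78), Dbf4 0.09 (0.656) and Rpa3 0.16 (0.473), and none of the 4 passed. Pcna, at 126, 152 and 169 in WT polysomes and 159, 151 and 185 in KO, overlapped between genotypes and did not pass either (log2 fold change 0.17, SE 0.14, adjusted p = 0.385). From weak correlations, the polysome libraries were taken as paired by replicate number. With the replicate block 47 genes rose: Dut (0.35 without the block, 0.33 with it, adjusted p = 0.0815 and 0.0209), Brca2 (0.81 and 0.82, adjusted p = 0.0558 and 0.0104) and E2f1 (0.43 and 0.44, adjusted p = 0.0916 and 0.0455) were added. Of the 44 calls 5 depended on single libraries. Mcm7 (adjusted p = 0.0498) was lost whichever library was left out, with adjusted p between 0.0666 and 0.208. Rfc1 was lost without KO 1, WT 2, KO 2 or WT 3 (0.188, 0.0741, 0.0785 and 0.173), Prim2 without KO 1, WT 2 or WT 3 (0.106, 0.058 and 0.0984), and Cdc7 and Brca1 without KO 1 (0.139 and 0.171) or WT 3 (0.0817 and 0.0548).

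Among 12 genes followed in every comparison (Mcm2, Mcm5, Mcm6, Pcna, Cdc6, Cdt1, Gmnn, Rrm2, Tyms, Dnmt1, Uhrf1 and E2f1), all but Pcna and E2f1 rose in polysomes. Cdt1 stood at 8.44, 6.26 and 7.43 scaled CPM in WT and at 11.3, 9.76 and 14.8 in KO (log2 fold change 0.72). Gmnn stood at 29.1, 35.1 and 32.5 and at 57.05, 46.3 and 63.2 (0.81), and Mcm2 at 12.4, 10.2 and 11.8 and at 20.7, 18.5 and 24.4 (0.91). Loader, inhibitor and helicase subunit were thus all clear of WT in this fraction too. Rrm2 stood at 35.4, 28.7 and 27.4 and at 55.8, 45.6 and 42.99 (0.69), and Tyms at 37.5, 35.1 and 40.2 and at 58.2, 44.6 and 64.5 (0.59). Of the maintenance pair, Dnmt1 stood at 12.8, 10.8 and 10.01 and at 19.3, 16.7 and 17.6 (0.70), and Uhrf1 at 11.9, 8.83 and 9.08 and at 24.2, 19.6 and 23.2 (1.20). No KO library overlapped a WT library in any of these 7 genes. E2f1 stood at 2.95, 3.15 and 3.72 and at 4.77, 4.05 and 4.17, where the groups were apart by little and the difference did not pass without the block. Of the other pathway genes, 31 of 92 rose in polysomes and 4 fell.

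In the subpolysome fraction, the shallowest, 33 of 57 genes rose and 0 fell, where 11% of 12645 genes were called higher and 11% lower. The median log2 fold change was 0.76, and the KO libraries lay above the WT libraries for 34 genes (17.5% of all genes) and below for 0 (19.2%). Clspn had the largest value but few counts: 32, 7 and 1 in WT and 181, 107 and 42 in KO (log2 fold change 3.08, SE 0.71, adjusted p = 0.00222). Pole stood at 1.93, 1.56 and 1.43 scaled CPM in WT and at 5.51, 5.96 and 8.68 in KO (log2 fold change 2.04, SE 0.34, adjusted p = 8.31e-05). Exo1 stood at 0.682, 0.692 and 1.26 and at 3.89, 2.37 and 4.08 (log2 fold change 1.99, SE 0.50, adjusted p = 0.00511). Timeless stood at 0.594, 0.623 and 2.18 and at 4.90, 1.94 and 4.04, where KO 2 lay below WT 3 (log2 fold change 1.70, SE 0.54, adjusted p = 0.0246), and its call was lost without WT 1, KO 1, WT 2 or KO 3 (adjusted p = 0.102, 0.151, 0.118 and 0.0769). Clspn, Pole and Exo1 kept the genotypes apart. The lowest values were those of Brca2, Mcm7, Prim2 and Gins4. Brca2 stood at 2.31, 3.29 and 2.35 in WT and at 2.62, 2.28 and 1.41 in KO, and Prim2 at 9.49, 8.44 and 10.3 and at 11.01, 6.09 and 9.33. Mcm7 stood at 72.04, 76.3 and 90.2 and at 75.7, 68.5 and 76.4, and Gins4 at 17.8, 18.1 and 14.6 and at 16.6, 16.98 and 15.5. The genotypes overlapped in all 4, and none of the log2 fold changes passed: Brca2 -0.31 (adjusted p = 0.697), Mcm7 -0.10 (0.611), Prim2 -0.08 (0.865) and Gins4 -0.03 (0.945).

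Several calls in subpolysomes depended on single libraries. Of the 33, 11 were lost on leaving out at least 1 library: 9 without KO 1 (adjusted p from 0.0523 to 0.205), 7 without KO 3 (0.0568 to 0.0981), 4 without WT 1 (0.0647 to 0.147), 4 without WT 2 (0.0526 to 0.224) and 3 without WT 3 (0.0831 to 0.114). They were Chaf1a, Chaf1b, Gins2, Mcm10, Mcm4, Orc6, Pold2, Rfc4, Rpa1, Rpa2 and Timeless.

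Of the 12 genes followed throughout, 8 rose in subpolysomes. Mcm2 stood at 11.3, 12.4 and 12.4 scaled CPM in WT and at 20.4, 18.7 and 21.3 in KO (log2 fold change 0.76). Mcm5 stood at 15.8, 8.37 and 10.3 and at 36.2, 19.7 and 42.8 (1.53), and Mcm6 at 7.77, 5.33 and 6.12 and at 21.2, 18.8 and 19.02 (1.63). The 3 helicase subunits kept the genotypes apart. Cdt1 stood at 31.7, 26.1 and 23.8 and at 50.2, 47.04 and 43.5 (0.80), and Rrm2 at 28.4, 21.2 and 14.9 and at 41.2, 34.6 and 35.3 (0.80). Tyms stood at 12.2, 12.9 and 14.96 and at 22.4, 22.2 and 18.3 (0.67). Uhrf1 stood at 10.9, 9.13 and 11.2 and at 18.8, 21.8 and 22.1 (1.02), and E2f1 at 8.75, 8.03 and 10.3 and at 16.2, 17.2 and 17.8 (0.94), again with no overlap in these 5. The other 4 did not pass. Cdc6 stood at 1.13, 5.05 and 1.97 and at 6.05, 2.47 and 3.76 (0.62), where WT 2 stood above 2 of the KO libraries. Gmnn stood at 8.75, 6.82 and 8.13 and at 12.8, 6.59 and 13.4 (0.48), where KO 2 stood below every WT library. Dnmt1 had 14.1, 11.1 and 12.3 and 19.96, 13.6 and 17.3 (0.45), and Pcna, whose levels follow with the gradient, had 0.08. Of the other pathway genes, 20 of 92 rose and 5 fell.

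Counting genes across the 3 kinds of RNA, 31 of the 57 rose in all of them, beside 8.75% of the 12431 genes tested in all 3. In both total RNA and polysomes 44 rose (14.2% of 12895 genes), and in both total RNA and subpolysomes 33 (10.6% of 12553). Orc6 and E2f1 rose in subpolysomes and not in polysomes. Orc2, Gins4, Dbf4 and Rfc3 rose in none. The 31 included 5 of the 6 helicase core genes, all but Mcm7, and 4 of the 5 genes of nucleotide supply, all but Dut. The heat map by library shows the same pattern gene by gene.

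**Figure D2:**
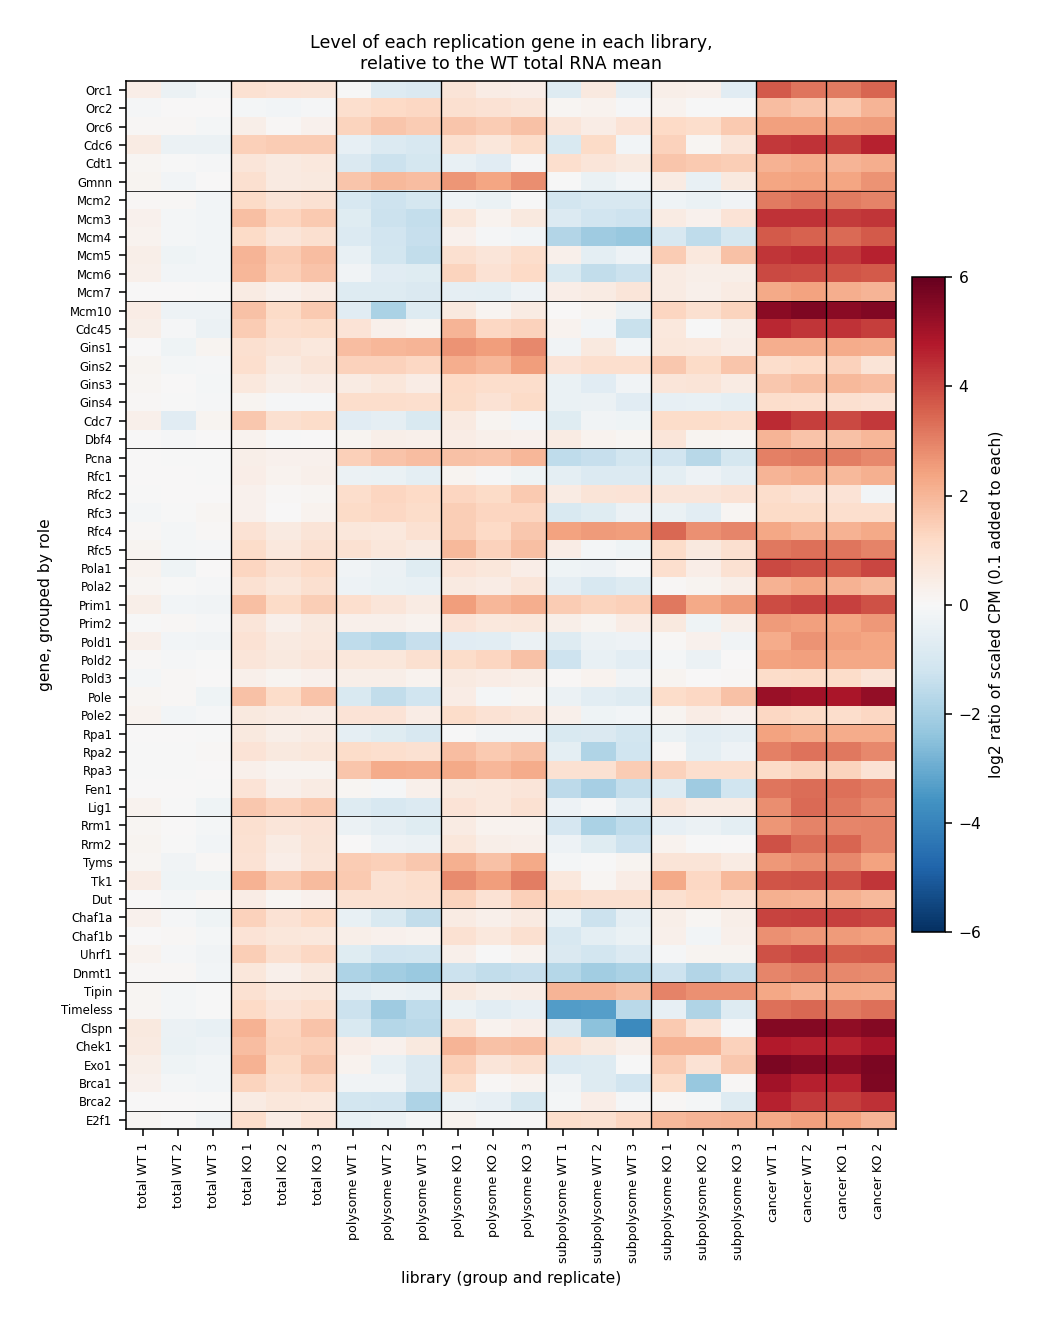
Level of each of the 57 genes (rows, grouped by role) in each of the 22 libraries (columns, grouped by kind of RNA and labelled genotype), as the log2 ratio to the gene's mean in WT total RNA after adding 0.1 scaled CPM to each. Red is higher and blue lower. In most rows the KO columns are redder than the WT columns of the same kind of primary RNA, and the 4 cancer columns are the reddest in most rows.

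The place of these mRNAs in the gradient ranged widely from gene to gene, from a log2 ratio of -2.50 to 2.95 in WT. Polysome was compared with subpolysome within each genotype, relative to the other mRNAs of each fraction. In WT 22 of the 57 were higher in polysomes and 13 lower, where 32.8% and 30.9% of 13392 genes were called (63.7% in either direction). In KO 24 were higher and 9 lower, where 31.7% and 29.9% were called (61.6% in either direction). In WT the set as a whole stood close to the background, and in KO its lower calls were fewer, with a median of 0.21 in WT and 0.33 in KO. Libraries of the fractions did not overlap for 24 higher and 11 lower genes in WT (38.1% and 31.1% of all genes) and for 29 and 9 in KO (34.5% and 30.3%).

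Pcna had the highest ratio of the set. It stood at 126, 152 and 169 scaled CPM in WT polysomes and at 15.96, 17.9 and 21.6 in WT subpolysomes (log2 ratio 2.95, SE 0.17, adjusted p = 3.69e-12). In KO it stood at 159, 151 and 185 in polysomes and at 20.9, 14.6 and 22.6 in subpolysomes (log2 ratio 3.06, SE 0.17). Every polysome library lay far above every subpolysome library in both genotypes. Gmnn held the polysome and subpolysome levels given above, with log2 ratios of 1.96 in WT and 2.31 in KO. Rpa2 stood at 17.6, 16.4 and 15.6 in WT polysomes and 5.37, 2.28 and 3.50 in WT subpolysomes, and at 30.2, 24.2 and 28.1 and 8.49, 5.49 and 6.66 in KO (2.07 and 1.96). Gins1 stood at 16.6, 18.1 and 18.7 and 3.86, 6.75 and 4.05 in WT, and at 30.2, 26.2 and 34.5 and 7.33, 7.12 and 6.18 in KO (1.81 and 2.10). For all 3 the lowest polysome library was above the highest subpolysome library in each genotype. Fen1 had 1.73 and 1.90, Rfc3 1.77 and 1.60, and Tyms 1.43 and 1.37.

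At the other end stood Tipin. It held 9.87, 11.4 and 10.5 scaled CPM in WT polysomes and 59.6, 60.3 and 52.7 in WT subpolysomes (log2 ratio -2.50, SE 0.12, adjusted p = 5.7e-13), and 21.7, 18.8 and 19.6 against 114, 98.5 and 99.2 in KO (-2.41). Cdt1 held 8.44, 6.26 and 7.43 in WT polysomes and 31.7, 26.1 and 23.8 in WT subpolysomes, with ratios of -1.95 in WT and -2.01 in KO. Its inhibitor Gmnn thus lay on the opposite side of the gradient. Rfc4 held 12.2, 11.5 and 14 in WT polysomes and 40.7, 43.7 and 43.2 in WT subpolysomes, and 20.8, 17.1 and 23.1 and 83.1, 50.7 and 58.5 in KO (-1.82 and -1.70). It stood apart from Rfc2, Rfc3 and Rfc5 of the same complex, which were all higher in polysomes in both genotypes (0.41, 1.77 and 0.60 in WT). The call of Rfc5 in WT was lost without subpolysome WT 3 or polysome WT 1 (adjusted p = 0.0507 and 0.0667). E2f1, with levels given above, had -1.53 and -2.02. Among the lowest were also Brca2 in WT (-1.57), at 1.12, 1.05 and 0.613 in WT polysomes and 1.95, 1.73 and 1.13 in KO polysomes, and Pole in KO (-1.29), at 1.25, 0.843 and 1.04 and 3.45, 2.28 and 2.70. Of the rest of the 12 genes, Cdc6 had -1.10 in WT, Rrm2 0.44, Dnmt1 -0.22 and Uhrf1 -0.13, and 0.06, 0.34, 0.04 and 0.06 in KO. Of these, Cdc6 and Rrm2 in WT passed, but Cdc6 did not without polysome WT 2 or WT 3 (adjusted p = 0.0734 and 0.0805) or subpolysome WT 2 (-0.25, adjusted p = 0.591), nor Rrm2 without polysome WT 1 or subpolysome WT 2 or WT 3 (adjusted p = 0.165, 0.0586 and 0.16). Eif4a2 overlaps 12.1% of the exon bases of Rfc4.

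The helicase core spread over the gradient although its proteins form 1 ring: in WT Mcm4 and Mcm6 were higher in polysomes (0.86 and 0.61), Mcm5 and Mcm7 lower (-0.88 and -1.40), and Mcm2 and Mcm3 did not pass (-0.13 and -0.12). In KO, Mcm4 (1.15), Mcm6 (0.72) and Mcm7 (-0.94) passed again, and Mcm2 (0.04), Mcm3 (-0.08) and Mcm5 (-0.50) did not. Fractions carry the replicate numbers of their titles, and with the replicate block Mcm5 passed in KO (-0.45, adjusted p = 0.0395), as did Rrm2 (0.33, adjusted p = 0.0212). The call of Mcm5 was lost without subpolysome WT 1 (-0.54, adjusted p = 0.101). The split between higher and lower moved with the scaling. With library totals in place of TMM factors the median of all genes moved from 0.009 to 0.836 in WT and from 0.01 to 0.895 in KO, and the members' counts became 38 higher and 5 lower in WT and 43 and 4 in KO. The share of all calls that were higher went from 51.6% to 83.1% in WT and from 51.4% to 85.9% in KO. Tipin, Cdt1, Rfc4 and E2f1 remained lower in both genotypes (-1.68, -1.13, -0.998 and -0.70 in WT, and -1.52, -1.13, -0.81 and -1.13 in KO), and in WT so did Mcm7 (-0.56), while 8 genes turned from a negative ratio to a called positive one in WT (Mcm2, Mcm3, Dbf4, Pola1, Prim2, Dut, Dnmt1 and Uhrf1, at 0.58 to 0.72) and 4 in KO (Mcm3, Dbf4, Pola1 and Chek1). In WT the calls of Prim1, Pole and Lig1 as lower ended, at ratios of 0.08 to 0.19. Cdc6, Mcm5, Mcm10 and Pold1 in WT also lost theirs (-0.25, -0.055, -0.315 and -0.328, adjusted p = 0.591, 0.866, 0.481 and 0.175). In KO, Mcm7 lost its call as lower (-0.053, adjusted p = 0.722), as did Mcm10, Prim1 and Pold1 (0.045, 0.382 and 0.218). Brca2 in WT stood at -0.73 and Pole in KO at -0.40, neither of the last pair passing.

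**Figure D3:**
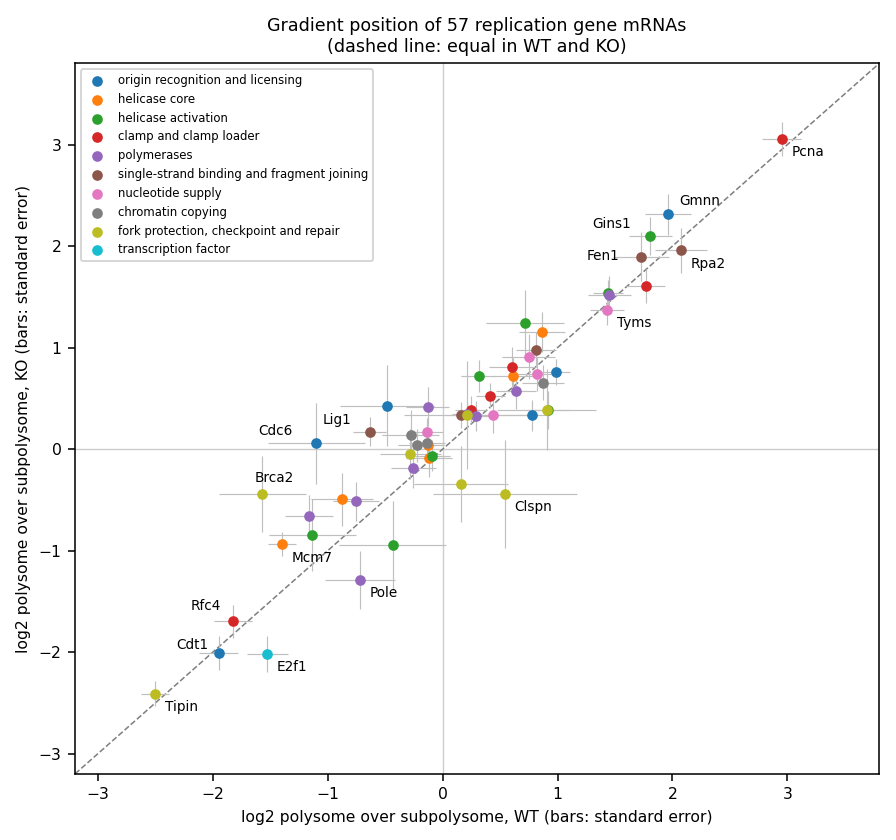
Log2 ratio of polysome to subpolysome level for each of the 57 genes in WT (horizontal axis) and KO (vertical axis), with bars of 1 standard error, 3 libraries per fraction and genotype, coloured by role. Genes are spread about the dashed line of equal ratio, from Tipin at -2.50 and -2.41 to Pcna at 2.95 and 3.06. Differences between KO and WT ran from -0.98 to 1.16, with Cdc6, Brca2, Orc1, Clspn and Lig1 among the genes off the line. None of the differences passed.

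Whether the knockout shifted any of these mRNAs in the gradient was asked by the interaction of fraction and genotype. For 0 of the 57 genes did it pass, and for 1 of 13392 genes (0.00747%). At an unadjusted p under 0.05 there were 3 of the 57 higher and 1 lower, beside 758 of the 13392 genes in either direction. DESeq2 called 0 of the 57. Cdc6 (1.16, SE 0.58), Brca2 (1.13, SE 0.53) and Orc1 (0.91, SE 0.57) had the highest values, and Clspn (-0.98, SE 0.82), Pole (-0.57, SE 0.41) and Gins3 (-0.53, SE 0.27) the lowest. Orc1 stood at 2.02, 1.15 and 1.08 and 3.56, 2.80 and 2.72 in WT and KO polysomes and at 1.16, 3.18 and 1.39 and 2.68, 2.59 and 1.25 in subpolysomes. Gins3 stood at 6.65, 7.57 and 6.46 and 10.7, 9.75 and 9.63 in polysomes and at 3.50, 2.91 and 4.05 and 7.79, 7.99 and 6.62 in subpolysomes. The other 4 have their levels above. Of the rest of the 12 genes, none passed, with values from -0.49 to 0.38. Lig1 had the lowest adjusted p, 0.457 (0.81, SE 0.20). Its ratio was -0.64 in WT and 0.17 in KO. The standard error was as large as 0.82 for Clspn. Even the value of Lig1, several times its own standard error, did not pass, so shifts of such a size may go uncalled here.

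Gradient fractions set against total RNA followed exon length, a union over transcripts that may differ from the length of the mRNA present. The log2 ratio of mean polysome to mean total RNA level was highest for the short Rpa3 (2.04 in WT, 0.67 kb of exon), Gins1 (1.98, 1.09 kb), Gmnn (1.84, 1.47 kb) and Pcna (1.68, 1.52 kb), and lowest for Dnmt1 (-2.06, 6.3 kb), Timeless (-1.66, 4.57 kb) and Pold1 (-1.56, 3.58 kb). Across the 57 genes Spearman's rho with exon length was -0.65 in both WT and KO, as a description over genes that share the same libraries, depth and scaling. Over 12433 genes it was -0.46 in WT and -0.50 in KO. Subpolysome to total RNA had rho of -0.33 and -0.35 over the 57 and -0.39 and -0.38 over 12433 genes, so the trend with length is not one of polysomes alone. Polysome to subpolysome ratios followed length less closely, with rho of -0.36 in WT and -0.39 in KO over the 57 and -0.03 and -0.07 over 12912 genes.

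In 3 classes by exon length, 19 genes each, the median log2 ratio of polysome to total RNA in WT was 0.93 for genes of 0.67 to 2.37 kb, -0.40 for 2.38 to 3.68 kb and -0.74 for 3.74 to 10.72 kb, and 0.95, -0.32 and -0.63 in KO. In the short class all WT polysome libraries lay above all WT total RNA libraries for 16 genes and below for 2, and in the long class above for 2 and below for 14 (37.9% and 36.5% of all genes). In KO the short class had 14 above and 2 below, and the long class 2 and 14 (35.4% and 35.9% of all genes). With library totals the medians were 0.81, -0.51 and -0.85 in WT. Exceptions were visible on both sides. Cdt1 and Tipin have short exon lengths and were low in polysomes. Rfc2 and Gins2, whose exons overlap other genes, have longer ones and were high.

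**Figure D4:**
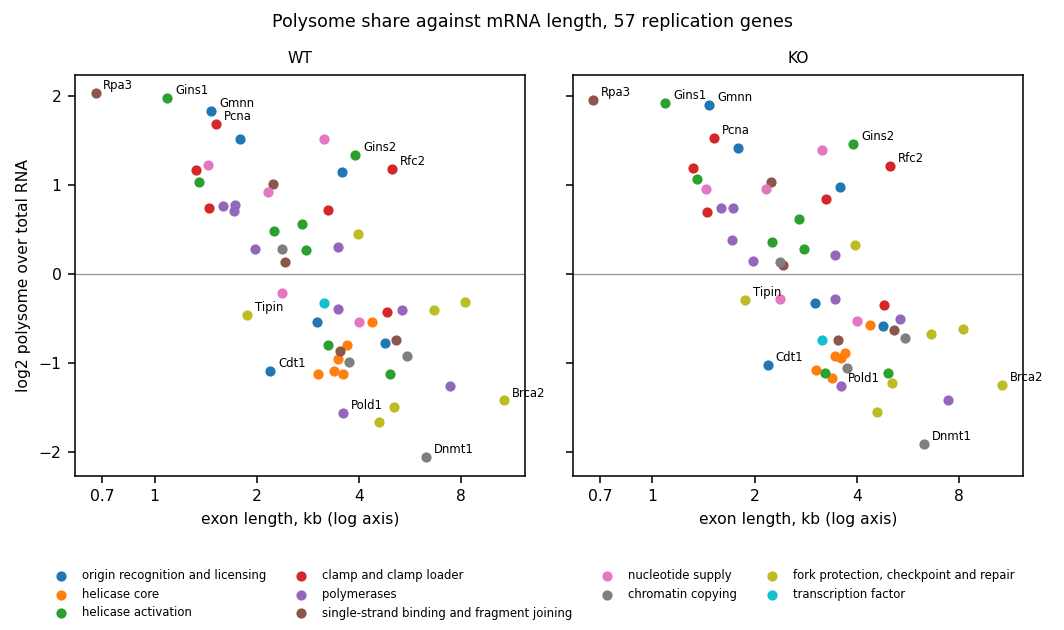
Log2 ratio of mean polysome level to mean total RNA level (vertical axis) against exon length in kilobases (horizontal log axis) for the 57 genes, WT left and KO right, coloured by role. Points run from Rpa3 at the upper left down to Dnmt1 and Brca2 at the lower right in both panels.

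In the cancer organoids all 57 genes were higher than in primary organoids, where 38.8% of 14305 genes were called higher and 39% lower (77.8% in either direction). The median log2 difference was 2.46 beside -0.025 over all genes. The 4 cancer libraries lay above all 6 primary libraries for 55 genes (32.4% of all genes), and Rfc2 and Gins2 overlapped. Tumour origin, culture, library set and the tools named in the submitters' processing notes differ together between these groups and cannot be told apart. Mki67 stood at 742 to 820 scaled CPM in the cancer libraries (log2 difference 5.29, SE 0.24), and 12 of 15 urothelial and epithelial markers were lower there while Trp63 was higher. Their part in the difference was not tested.

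Genes scarce in primary organoids had the largest differences. Mcm10 stood at 73.03 and 82.5 scaled CPM in the libraries labelled WT and at 71.6 and 79.9 in those labelled KO (log2 difference from primary 4.79, SE 0.20, adjusted p = 2.23e-07). Exo1 stood at 68.4 and 62.4 and at 57.9 and 68.4 (4.77, SE 0.21). Clspn stood at 85.4 and 85.04 and at 75.6 and 87.1 (4.62, SE 0.25). All lay far above the highest primary KO library, at 5.61, 5.68 and 8.01. Brca1 followed at 75.8 and 58.1 and at 56.3 and 109 (4.47). The smallest differences were those of Rfc2, at 72.4 and 63.4 and at 62.7 and 31.1 (0.61), and Gins2, at 15.9 and 17.4 and at 19.6 and 13.1 (0.73). Pole2 stood at 25.9 and 24.7 and at 22.5 and 25.7 (0.90), and Pold3 at 47.2 and 49.04 and at 46.4 and 38.1 (0.91). The second library labelled KO was the lowest of the 4 for Rfc2, Gins2 and Pold3.

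All 12 genes followed throughout were higher in cancer, each with its 4 libraries above all primary ones. In licensing, Cdc6 stood at 44.2 and 46.9 and at 41.1 and 57.9 (3.62), Cdt1 at 66.7 and 73.1 and at 65.2 and 70.7 (1.81) and Gmnn at 47.1 and 47.8 and at 46.7 and 58.8 (2.10), where the first pair of values is for libraries labelled WT, the second for those labelled KO, and the value in brackets is the log2 difference from primary. Mcm2 stood at 216 and 234 and at 210.5 and 195 (2.64) and Mcm5 at 248 and 278 and at 244 and 309 (3.48), and Mcm6 differed by 2.96. Among these licensing and helicase genes the difference ran from 1.81 for Cdt1 to 3.62 for Cdc6. Pcna stood at 383 and 405 and at 388 and 345 (2.87) and Rrm2 at 505 and 362 and at 394 and 276 (3.06), where the libraries of Rrm2 spread widely within each label. Tyms stood at 81.5 and 92.6 and at 96.3 and 69.5 (2.34), Dnmt1 at 352 and 389 and at 349.9 and 331 (2.66) and Uhrf1 at 279.8 and 317 and at 244 and 255 (3.16). E2f1 stood at 20.5 and 22.9 and at 22.04 and 17.3 (1.91). Orc2, Gins4 and Dbf4, which did not pass between primary genotypes, stood at 112 and 95.99 and at 92.3 and 127 (1.85), 49.2 and 46.9 and at 46.04 and 42.8 (0.98) and 119 and 94.7 and at 96.4 and 112 (1.85), and all 3 were called higher in cancer. Per kilobase, the most abundant in cancer libraries labelled WT were Pcna (259.6 ± 10.3, n = 2), Rrm2 (182 ± 42.6) and Mcm3 (104 ± 1.70). Of the other pathway genes, 80 of 93 were higher in cancer and 9 lower.

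**Figure D5:**
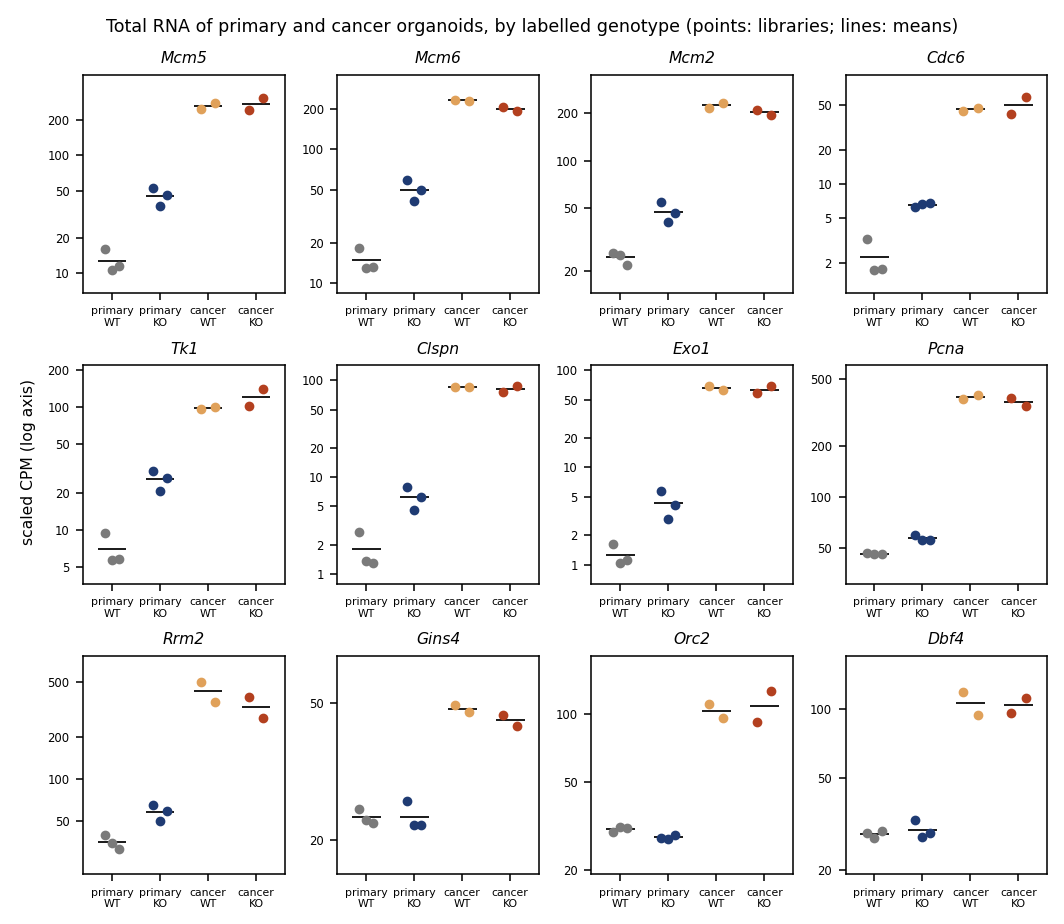
Scaled CPM (log axis) of 12 replication genes in each total RNA library, for primary WT, primary KO, cancer labelled WT and cancer labelled KO, with points for libraries and lines for means. For Mcm5, Mcm6, Tk1 and Clspn the primary KO points sit above the primary WT points, and for all 12 genes the cancer points sit above both.

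Between the cancer libraries labelled KO and WT, 0 of the 57 genes passed, as did 0 of 12681 genes (0%). At an unadjusted p under 0.05 there were 0 of the 57 and 96 of all genes, and DESeq2 called 0 of the 57 and 7 genes higher and 3 lower. As given above, 2 of the 4 labels go against the counts of Arid1a. The highest values were 0.31 for Brca1, 0.30 for Tk1 (levels 97.1 and 101 labelled WT and 102 and 140.1 labelled KO), 0.20 for Gins3 (14.6 and 16.4 against 18.3 and 17.1) and 0.16 for Gmnn, and the lowest -0.53 for Rfc2, -0.37 for Rrm2, -0.25 for Uhrf1 and -0.25 for Mcm7 (268 and 292 against 247 and 222). The rest of the 12 genes had values from -0.21 to 0.13. Libraries of the labelled genotypes did not overlap for 3 higher genes (9.87% of all genes) and 14 lower ones (10.8%). Mcm6 stood at 232 and 229 in the libraries labelled WT and at 206 and 190.4 in those labelled KO (log2 fold change -0.21, SE 0.12).

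The knockout differences of cancer and primary organoids were then set against each other as an interaction over the 10 total RNA libraries. For 20 of the 57 genes the difference labelled KO minus WT was lower in cancer, and for 0 higher, where 1.6% of 14305 genes were called lower and 1.53% higher (3.13% in either direction). All 6 helicase core genes were among the 20. Mcm6 had -1.997 (SE 0.27, adjusted p = 0.0124): its difference was 1.76 in primary and -0.21 in cancer. Mcm5 had -1.81 (SE 0.31, adjusted p = 0.028): its difference was 1.86 in primary and 0.08 in cancer. Clspn (-1.90) and Exo1 (-1.84), among the 4 lowest, did not pass (adjusted p = 0.0746 and 0.0513). The highest values, none of which passed, were 0.16 for Orc2, -0.14 for Dbf4, -0.16 for Gins4 and -0.21 for Orc6 (61.1 and 60.2 in cancer labelled WT and 62.96 and 64.5 labelled KO). Of the 12 genes, Cdt1, Mcm2, Mcm5, Mcm6 and Uhrf1 passed, and Pcna (-0.45), Cdc6 (-1.46), Gmnn (-0.61), Rrm2 (-1.15), Tyms (-0.80), Dnmt1 (-0.69) and E2f1 (-0.99) did not. The cancer differences of the 57 lay between -0.53 and 0.31 with a median of -0.07, and 2 of the 4 cancer labels go against Arid1a. This count depended on single libraries: it was 1 without primary WT 3 or KO 3, 2 without primary WT 2 and 4 without primary KO 1. It was 30 without the first cancer library labelled KO and 41 by DESeq2. With the replicate block it was 1, but replicate numbers do not pair these libraries. At an unadjusted p under 0.05, 50 of the 57 were lower, beside 2911 of the 14305 genes in either direction.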

How the data were processed

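The authors deposited raw read counts, whole numbers without normalization, for 24421 gene symbols in each of 22 libraries (3 per primary group and 2 per labelled cancer group). HTSeq and the mm10 build are named for all of them, per the submitters' processing notes, and Bowtie for primary organoids. The sources used here do not give versions, annotation, strand setting or the treatment of reads with several matches. RNA came from RNeasy columns with DNase treatment and libraries followed Illumina protocols, per the labels' protocols. Bowtie by itself places no read across an exon junction. Since every level is a share of its library, the RNA content of a gradient fraction is not measured.

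The count tests used edgeR 4.0.16 under R 4.3.3, with TMM factors, filterByExpr and glmQLFit, and p-values of the quasi-likelihood test were adjusted by Benjamini-Hochberg over all genes tested (threshold 0.05). KO and WT were compared within each kind of RNA on its own libraries, fractions and their interaction over the 12 gradient libraries, and cancer with primary organoids over 10 total RNA libraries. A standard error is the log2 fold change divided by the root of its F statistic. Levels are CPM scaled by TMM factors. Exon lengths and overlaps are from GENCODE M21 (GRCm38), and promoters from RefSeq (GRCm38.p6). DESeq2 1.42.0, no filter, the replicate block, 1 fit on 18 primary libraries, library totals and leaving out single libraries were the alternatives. The tests were tried on simulated data.

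Values in every library were written out, by rule, for the 12 largest and 6 smallest changes in total RNA, the 4 highest and 4 lowest in each other comparison (3 for the interaction of fraction and genotype) and 12 genes throughout, and the 2 largest changes of each other pathway list were named, except for nucleotide supply, whose single genes outside the set are not reported here. Members and lists were chosen with earlier results of these data known, and members named besides these were chosen after their values were seen. Pairing was checked by correlating the deviations of same-numbered libraries from their group means. Groups were taken as paired where all same-numbered correlations passed a set limit, and libraries of unlike number were not compared. KO and WT polysome libraries were taken as paired (0.19, 0.20 and 0.25), though these correlations were weak. Total RNA (0.15, 0.04 and -0.07) and subpolysome libraries (0.03, 0.04 and 0.07) were not, nor were polysome with subpolysome libraries of a genotype (0.06 to 0.19), which share replicate numbers in their titles.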

Additional observations from a re-analysis of the deposited data

Results flagged for a closer look

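In 20 genes the labelled KO minus WT difference differed between cancer and primary organoids by the test of the difference itself, an interaction in edgeR over 10 libraries, with adjusted p between 0.00976 and 0.0491. The log2 values, cancer minus primary, were all negative. In licensing and the helicase core they were -0.72 for Cdt1, -1.15 for Mcm2, -1.71 for Mcm3, -1.06 for Mcm4, -1.81 for Mcm5, -1.997 for Mcm6 and -0.71 for Mcm7. Among polymerases and the clamp loader they were -1.06 for Rfc5, -1.25 for Pola1, -1.10 for Pola2, -1.59 for Prim1, -0.84 for Pold2 and -1.66 for Pole. Strand binding and joining gave -0.66 for Rpa1, -0.88 for Rpa2 and -1.68 for Lig1. Chromatin copying and fork protection gave -1.25 for Chaf1a, -0.92 for Chaf1b, -1.54 for Uhrf1 and -1.25 for Timeless. In all 20 the primary KO libraries were called higher than WT, and none was called between the labelled cancer genotypes. In 2 of the 4 cancer libraries the counts of Arid1a go against the label, and the part of that in these values was not tested. Of the 20 calls, 19 were lost on leaving out at least 1 library (1 was left without primary WT 3 or KO 3). With the replicate block 19 were lost, but replicate numbers do not pair these libraries.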

How the results depend on the processing

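Leaving out 1 library at a time gave, for the 57 genes, 50 to 54 higher in total RNA, 39 to 44 in polysomes, 24 to 35 in subpolysomes and 57 in cancer against primary, with 0 lower in each. Polysome against subpolysome gave 19 to 26 higher and 10 to 13 lower in WT, and 21 to 26 and 7 to 10 in KO. Over all genes the ranges were 3074 to 3430 higher and 3067 to 3335 lower in total RNA, 1510 to 2033 and 1332 to 1829 in polysomes, 1000 to 1293 and 993 to 1257 in subpolysomes, and 5316 to 5615 and 5286 to 5861 in cancer against primary. The interaction of fraction and genotype gave 0 to 2 genes higher and 0 to 3 lower. The difference of the KO effects gave 1 to 30 of the 57 lower, and 40 to 1106 genes higher and 32 to 1270 lower. Settings that moved a count were the following. One fit on all 18 primary libraries gave 1770 genes higher and 2014 lower in total RNA, 2112 lower in subpolysomes, and 1 of the 57 lower in polysomes (Orc2, -0.29, adjusted p = 0.032). For the interaction of fraction and genotype, genes higher and lower numbered 10 and 19 with no filter on low counts, 9 and 3 by DESeq2, 6 and 7 with the replicate block and 5 and 1 in the fit on 18 libraries. DESeq2 gave 7 genes higher and 3 lower between cancer labels. For the difference of the KO effects, 13 of the 57 were lower with no filter, and DESeq2 gave 41 of the 57, with 824 genes higher and 923 lower. With library totals in place of TMM factors, polysome against subpolysome gave 38 of the 57 higher and 5 lower in WT (7954 and 1616 genes) and 43 and 4 in KO (8207 and 1350 genes). In WT, 8 of the 57 then turned from negative to called higher, Mcm2 (0.70), Dnmt1 (0.60) and Uhrf1 (0.70) among them, and in KO 4. The cause of these shifts was not tested.

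With the replicate block, 53 of the 57 were higher in total RNA, 47 in polysomes and 34 in subpolysomes, and the fraction contrasts gave 24 higher and 13 lower in WT and 28 and 10 in KO. The fraction calls added were Cdc45 and Timeless in WT and Orc6, Mcm5, Pola2, Prim2 and Rrm2 in KO. In the difference of the KO effects the block left 1 of the 57 lower (Mcm6), with 34 genes higher and 26 lower, which as a fit on numbers that do not pair these libraries says nothing of the size of the effect. Same-numbered cancer libraries deviated in opposite ways (correlation -0.43), and with the numbers crossed, an alternative chosen after seeing the data, 0 of the 57 and 0 genes were called. Depth limits the scarce genes of the subpolysome fraction most.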
